A study of Mus musculus with 18 samples.

Results

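The RAS-MAPK genes compared here are 38 genes of the pathway that *Nf1* restrains, out of 35275 genes in the count table, measured in mouse malignant peripheral nerve sheath tumor (MPNST) cell lines. They were matched to the table by gene name and fall into 17 core signaling genes, 15 negative regulators and 6 transcriptional output genes. RNA-seq was run on 18 libraries from 6 cell lines, each grown from 1 tumor and each sequenced as 3 cultures. Tumors arose in the sciatic nerve of 129 Sv/Jae mice after injection of an adenovirus carrying Cas9, under the CMV promoter, with guide RNAs against *Nf1* and p53 (*Nf1/p53* dKO, 3 lines) or *Nf1* and *Cdkn2a* (*Nf1/Cdkn2a* dKO, 3 lines). *Nf1* was thus targeted in both groups, no line with intact *Nf1* was part of the comparison, and the cells were untreated. The lines had been passaged at least 20 times in medium with 10% serum. The age of the mice is not given in the sources used here, and the CMV promoter does not limit the deletion to 1 cell type.

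RAS proteins are small GTPases that switch on RAF kinases, which activate the MEK kinases (*Map2k1*, *Map2k2*), which in turn activate the ERK kinases such as *Mapk3*. Neurofibromin, the product of *Nf1*, is a GTPase-activating protein that turns RAS off, and its loss is the founding event of most nerve sheath tumors in neurofibromatosis. ERK activity induces its own inhibitors, among them the Sprouty (Spry) and Spred proteins and the dual-specificity phosphatases (Dusp), so the RNA levels of these genes are widely used as a readout of the pathway.

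Levels are given as CPM, read counts scaled to library size with TMM, for each line with its 3 cultures summed, in the order line 1, line 2, line 3. Fold changes compare the *Nf1/Cdkn2a* dKO with the *Nf1/p53* dKO lines, and a gene is called changed at an adjusted p under 0.05 over all 15207 genes tested with edgeR's quasi-likelihood test. All 38 genes passed the filter on low counts. In this comparison 2 of the 38 were called, *Rras2* higher and *Egr1* lower in the *Nf1/Cdkn2a* dKO, beside 1.8% of all genes called in either direction (0.638% higher and 1.16% lower). Levels were without overlap, every line of a genotype above every line of the other, for 16 of the 38 genes, 12 of them higher in the *Nf1/Cdkn2a* dKO, beside 31.4% of all genes without overlap (14.8% higher and 16.6% lower). Scaling did not settle the direction of every gene: 26 genes had a higher and 12 a lower fitted level in the *Nf1/Cdkn2a* dKO after TMM, and 22 and 16 with raw library totals, which moved the median of all genes from -0.02 to -0.16 on the log2 scale.

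Sequences just upstream of the start are shown for 6 genes, of which only the GTPase *Rras2* was called. *Dusp5*, *Dusp6* and *Dusp7* are those of the 4 Dusp phosphatases without overlap between the genotypes. *Spry2* and *Spry1* are a pair of feedback inhibitors with opposite differences. The sequences are RefSeq promoter windows of the build GRCm38.p6, each 250 bases and read 5′ to 3′ on the gene's strand. That of *Dusp5* stops after 214 bases, where GENCODE M21 starts the gene. Capitals mark ETS core motifs (CGGAA, or TTCCG on the other strand), the sites of the Etv and Elk factors, and CArG boxes, the sites of serum response factor.
Rras2 (chr7:114117782-114118031, minus strand): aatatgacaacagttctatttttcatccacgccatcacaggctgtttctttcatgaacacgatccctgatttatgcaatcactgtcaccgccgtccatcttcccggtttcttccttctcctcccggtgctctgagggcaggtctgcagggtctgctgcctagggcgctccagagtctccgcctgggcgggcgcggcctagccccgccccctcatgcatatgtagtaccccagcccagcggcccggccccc
Dusp5 (chr19:53528895-53529108, plus strand): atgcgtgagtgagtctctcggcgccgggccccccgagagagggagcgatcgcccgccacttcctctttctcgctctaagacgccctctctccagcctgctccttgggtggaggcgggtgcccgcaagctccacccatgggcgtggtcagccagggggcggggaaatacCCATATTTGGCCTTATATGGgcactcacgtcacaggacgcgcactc
Dusp6 (chr10:99262981-99263230, plus strand): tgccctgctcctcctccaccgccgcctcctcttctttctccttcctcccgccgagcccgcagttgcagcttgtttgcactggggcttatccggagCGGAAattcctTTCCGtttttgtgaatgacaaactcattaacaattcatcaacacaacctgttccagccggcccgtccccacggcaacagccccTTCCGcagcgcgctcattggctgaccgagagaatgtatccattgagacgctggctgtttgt
Dusp7 (chr9:106368382-106368631, plus strand): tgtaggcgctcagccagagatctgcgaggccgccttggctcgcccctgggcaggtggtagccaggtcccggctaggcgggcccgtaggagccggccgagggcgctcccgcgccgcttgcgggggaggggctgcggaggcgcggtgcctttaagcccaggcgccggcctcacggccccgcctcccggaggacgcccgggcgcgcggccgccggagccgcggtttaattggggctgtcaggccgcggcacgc
Spry2 (chr14:105896820-105897069, minus strand): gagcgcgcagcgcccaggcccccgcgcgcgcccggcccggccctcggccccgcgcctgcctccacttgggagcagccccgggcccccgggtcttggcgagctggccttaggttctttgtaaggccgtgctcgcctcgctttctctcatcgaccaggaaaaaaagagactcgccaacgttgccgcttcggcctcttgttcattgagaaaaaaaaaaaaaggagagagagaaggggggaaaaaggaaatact
Spry1 (chr3:37639697-37639946, plus strand): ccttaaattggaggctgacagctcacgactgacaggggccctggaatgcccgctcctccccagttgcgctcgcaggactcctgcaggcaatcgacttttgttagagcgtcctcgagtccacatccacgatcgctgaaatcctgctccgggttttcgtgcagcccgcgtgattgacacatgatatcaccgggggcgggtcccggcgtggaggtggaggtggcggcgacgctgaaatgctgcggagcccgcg
*Dusp6* held 3 ETS cores and *Dusp5* 2 CArG boxes that adjoin without overlapping, while the other 4 windows held neither motif in these forms. The full 250 bases of *Dusp5* held 1 ETS core more, in the 36 bases not printed, and the shares below use the full windows. Among all 32851 RefSeq promoters, 25.2% held an ETS core, 1.47% a CArG box and 4.46% an AP-1 motif (TGACTCA or TGAGTCA) on either strand in the 250 bases upstream. The table had 38 promoters for 30 of the 38 genes. It had none for the called *Egr1*, nor for *Phlda1*, *Lzts1*, *Etv4*, *Spry4*, *Dusp4*, *Mapk3* and *Rps6ka3*, which the next shares leave out. Of the 38 promoters 39.5% held an ETS core, 2.63% a CArG box and 2.63% an AP-1 motif. These matches are letters in a window, and binding was not measured.

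Library totals were 19560535 to 28312207 counts, and line totals 65206479 to 73065228. Of the targeted genes, *Trp53* read 94.1, 67.5 and 58.7 CPM in the *Nf1/p53* dKO against 247, 246 and 185 CPM in the *Nf1/Cdkn2a* dKO, 3.08-fold higher in the latter (adjusted p = 0.036). *Cdkn2a* RNA overlapped between the genotypes, at 363, 279 and 42.9 CPM in the *Nf1/p53* dKO against 169, 392 and 285 CPM in the *Nf1/Cdkn2a* dKO. Small insertions and deletions from Cas9 need not lower a gene's RNA, so this level is no test of the label. Of the Schwann cell markers, *Sox10* was at most 0.099 CPM in every line, and the 6 markers used summed to 3.42 to 68.4 CPM in the *Nf1/p53* dKO against 1.22 to 2.83 CPM in the *Nf1/Cdkn2a* dKO. Most of the upper end was *Ngfr* in *Nf1/p53* dKO line 2, at 64.3 CPM, against at most 1.06 CPM in lines 1 and 3. The 6 mesenchymal markers summed to 9737 to 22776 and 11115 to 18278 CPM. Skeletal muscle markers (6 genes) summed to 82.2 to 421 CPM in the *Nf1/p53* dKO against 0.938 to 5.52 CPM in the *Nf1/Cdkn2a* dKO. In the latter *Myod1* and *Myog* were at 0 in all 3 lines. *Myf5*, *Myod1*, *Des* and *Cdh15* were without overlap, beside 31.4% of all genes tested. *Acta1* overlapped, and *Myog* was too low to be tested. *Myf5* and *Cdh15* were called by edgeR (adjusted p = 0.0067 and 0.019). The 5 leukocyte markers summed to at most 8.13 CPM and the 4 endothelial markers to at most 2.02 CPM in any line. The part of these differences in the results below was not tested, and in bulk RNA a smaller share of cells of a type and less RNA per cell cannot be told apart.

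**Figure D1:**
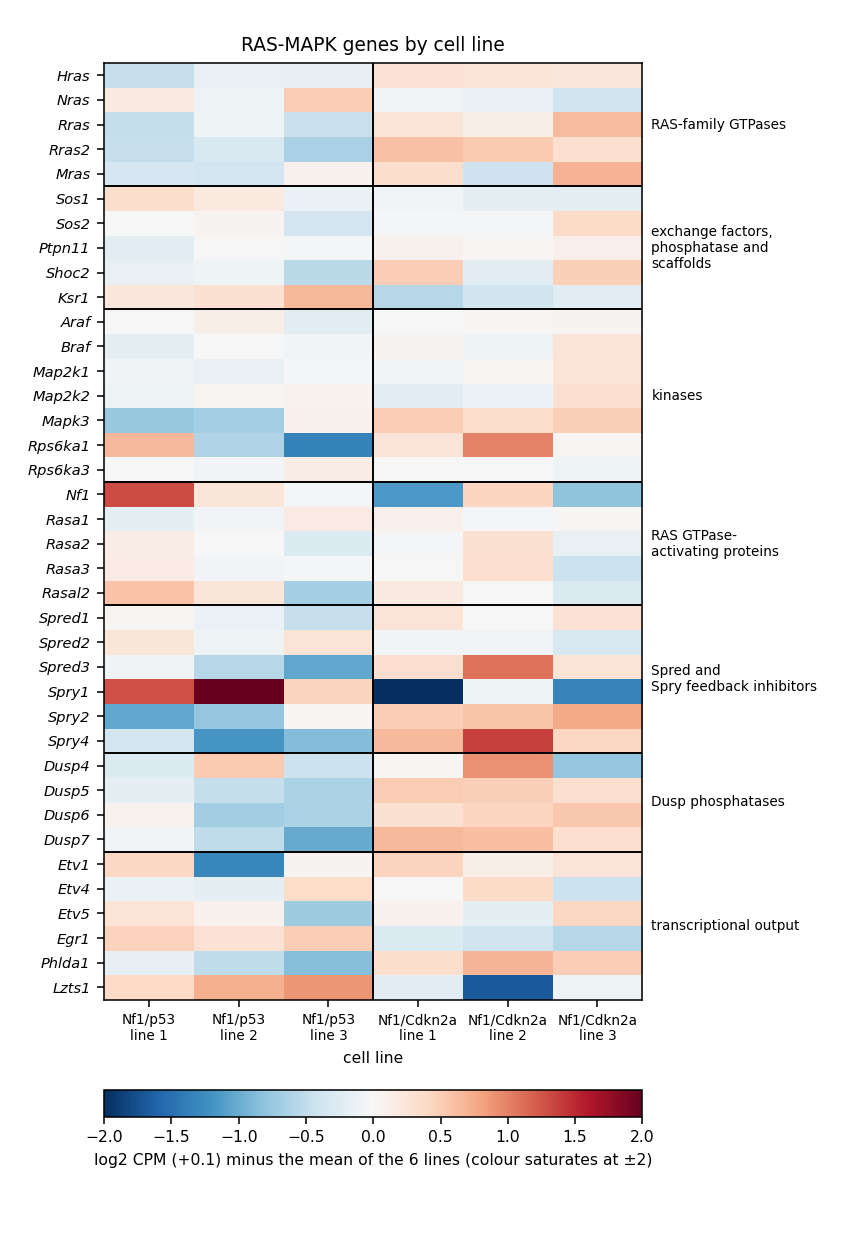
Heat map of the 38 genes (rows, grouped by role) in the 6 cell lines (columns). Colour gives log2 of CPM plus 0.1, minus the mean of the 6 lines, and saturates at 2 in either direction. *Spry1* is red in the 3 *Nf1/p53* dKO lines, while *Rras2*, *Spry2*, *Spry4*, *Dusp5* and *Phlda1* are red in the 3 *Nf1/Cdkn2a* dKO lines; the kinase rows, apart from *Mapk3* and *Rps6ka1*, are nearly white.

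Among the 5 RAS-family GTPases, *Rras2* rose in the *Nf1/Cdkn2a* dKO and 2 others lay higher there without overlap and without passing the test. Of all genes, 14.8% lay higher there without overlap. *Rras2* encodes TC21, a RAS relative that signals to RAF and to phosphoinositide 3-kinase, and lies at chr7:114046782-114117781 on the minus strand. Its level was 153, 168 and 134 CPM in the *Nf1/p53* dKO against 317, 301 and 265 CPM in the *Nf1/Cdkn2a* dKO, so that the lowest line of the latter stood well above the highest of the former. The log2 fold change was 0.96 ± 0.15 (SE, n = 3 lines each), or 1.94-fold, with an adjusted p of 0.044 from edgeR. The call was lost when any of the 6 lines was left out (adjusted p = 0.072 to 0.145). It held under the other scalings and filters.

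*Hras*, a classical RAS gene, read 67.0, 82.5 and 82.3 CPM in the *Nf1/p53* dKO against 112, 110.4 and 107 CPM in the *Nf1/Cdkn2a* dKO. Its log2 fold change of 0.51 ± 0.13 had an adjusted p of 0.096. *Rras*, which encodes a GTPase of integrin-mediated adhesion, read 25.2, 32.8 and 25.9 CPM against 42.2, 38.01 and 54.6 CPM. The lines of these 2 genes did not overlap, yet neither passed the test (adjusted p = 0.116 for *Rras*). *Nras* was the one RAS gene with a lower mean, at 163, 135 and 204 CPM against 138, 131 and 109 CPM, and its lines overlapped (log2 fold change -0.41 ± 0.19, adjusted p = 0.272). *Mras*, whose protein forms a RAF-activating complex with Shoc2 and the phosphatase PP1, ranged from 43.3 to 59.7 CPM and from 42.4 to 91.6 CPM, again with overlap.

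Levels of different genes are compared per kb of exon. The 5 RAS-family genes summed to 123, 132 and 133 CPM per kb in the *Nf1/p53* dKO against 197, 181 and 190.1 CPM per kb in the *Nf1/Cdkn2a* dKO. *Rras2* supplied 35.1, 35.8 and 28.4% of this sum in the former and 45.3, 46.8 and 39.2% in the latter, the highest share of the 5 in 5 of the 6 lines. In *Nf1/p53* dKO line 3 *Nras* supplied slightly more, at 28.9%. Across the lines the *Nras* share was 24.9, 19.1 and 28.9% against 13.2, 13.6 and 10.7%, so the shares of *Rras2* and *Nras* each separated the genotypes, in opposite directions. These sums and shares carry no test.

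Of the exchange factors, phosphatase and scaffolds, none was called by edgeR (1 passed an unadjusted p under 0.05, beside 22.4% of all genes). *Ksr1* and *Ptpn11* were without overlap, beside 31.4% of all genes. *Ksr1*, a scaffold that holds RAF, MEK and ERK together, was the lowest of the 5 in fold change. It read 11.9, 12.6 and 16.2 CPM in the *Nf1/p53* dKO against 6.79, 7.64 and 8.70 CPM in the *Nf1/Cdkn2a* dKO, a log2 fold change of -0.82 ± 0.23 (adjusted p = 0.112). The lines were apart, but the gap did not pass the test. *Ptpn11*, which encodes the phosphatase SHP2 that helps to switch RAS on, was without overlap by a small margin, at 216, 251 and 244 CPM against 266, 254 and 269 CPM (log2 fold change 0.15 ± 0.13). *Shoc2* had the highest fold change of this group (0.54 ± 0.24, adjusted p = 0.240) with overlapping lines, since *Nf1/Cdkn2a* dKO line 2 (71.5 CPM) lay inside the *Nf1/p53* dKO range of 57.0 to 78.2 CPM. The exchange factors *Sos1* and *Sos2*, which load GTP onto RAS, overlapped as well, with log2 fold changes of -0.29 and 0.21.

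None of the 7 kinases was called by edgeR, and 6 overlapped between the genotypes. An unadjusted p under 0.05 was reached by 1 of the 7 kinases, beside 22.4% of all genes. *Mapk3*, which encodes ERK1, had the largest fold change of them: 95.8, 101 and 171 CPM in the *Nf1/p53* dKO against 229, 206 and 225 CPM in the *Nf1/Cdkn2a* dKO. The genotypes did not overlap, but *Nf1/p53* dKO line 3 lay between the other lines of its genotype and the *Nf1/Cdkn2a* dKO lines, and the log2 fold change of 0.84 ± 0.25 had an adjusted p of 0.117. Without that line *Mapk3* passed the test, with a log2 fold change of 1.17 and an adjusted p of 0.038.

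The RAF kinases *Araf* and *Braf* and the MEK kinases *Map2k1* and *Map2k2* had log2 fold changes from 0.01 to 0.17, with adjusted p from 0.507 to 0.971. The signs of *Araf* and *Map2k2* turned with raw library totals (-0.08 and -0.12), and that of *Map2k2* also with upper-quartile scaling (-0.03). *Rps6ka3*, which encodes the ERK-activated kinase RSK2, had the lowest value of the 7 (-0.06 ± 0.12, adjusted p = 0.800). Its relative *Rps6ka1* (RSK1) varied most between lines, at 28.3, 11.9 and 7.02 CPM against 21.6, 36.1 and 18.4 CPM, and the genotypes overlapped (adjusted p = 0.491). Per kb of exon *Mapk3* was the most abundant kinase of the 7 in every line, at 42.4 to 75.9 and 91.1 to 102 CPM per kb, and *Braf* lay at 2.05 to 2.80 CPM per kb.

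**Figure D2:**
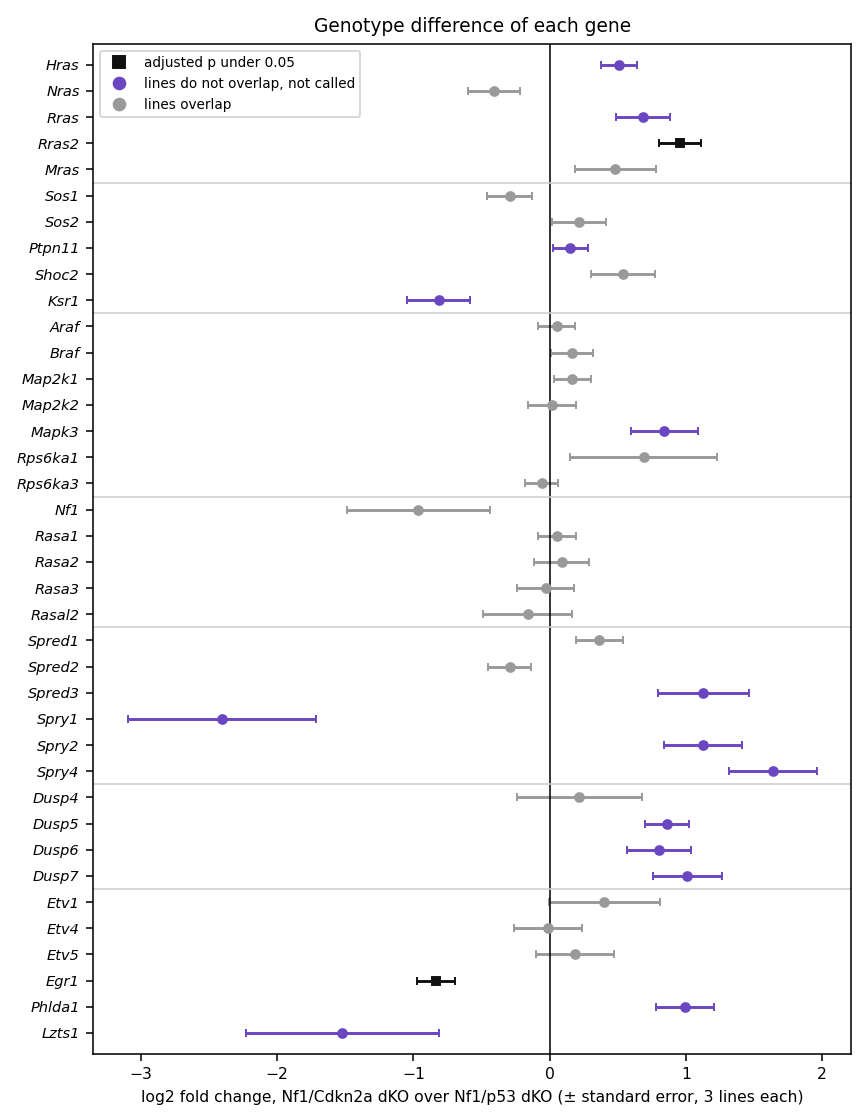
Log2 fold change of each of the 38 genes, *Nf1/Cdkn2a* dKO over *Nf1/p53* dKO (horizontal axis; bars are ± 1 standard error, 3 lines per genotype), with grey lines between roles. Black squares mark *Rras2* (0.96) and *Egr1* (-0.83), the 2 genes called at an adjusted p under 0.05, and purple points the 14 further genes whose lines do not overlap; *Spry1* (-2.40) lies farthest left and *Spry4* (1.64) farthest right.

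None of the 5 RAS GTPase-activating proteins was called by edgeR or without overlap, and 0 passed an unadjusted p under 0.05. Of all genes, 31.4% were without overlap and 22.4% passed that unadjusted p. *Nf1* RNA itself, targeted in every line, was still present in all 6: 70.0, 33.5 and 27.7 CPM in the *Nf1/p53* dKO against 12.7, 38.3 and 16.2 CPM in the *Nf1/Cdkn2a* dKO. *Nf1/p53* dKO line 1 stood highest and *Nf1/Cdkn2a* dKO line 1 lowest, and the log2 fold change of -0.96 ± 0.52 had an adjusted p of 0.328. RNA from an edited gene does not show that protein is made, so this level does not bear on the loss of neurofibromin. *Rasa1*, *Rasa2*, *Rasa3* and *Rasal2*, other proteins that stimulate RAS to hydrolyze GTP, had log2 fold changes from -0.16 (*Rasal2*) to 0.09 (*Rasa2*), with the signs of *Rasa1* (-0.08) and *Rasa2* (-0.04) turned by raw library totals. Per kb of exon *Rasa3* was the most abundant of the 5 in 5 of the 6 lines and *Rasa1* in *Nf1/Cdkn2a* dKO line 3, at 18.4 to 28.3 CPM per kb.

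The Spred and Spry feedback inhibitors held the highest and the lowest fold change of all 38 genes, *Spry4* and *Spry1*. None of the 6 was called by edgeR (4 passed an unadjusted p under 0.05, beside 22.4% of all genes). *Spry4*, a Sprouty protein that blocks RAS-MAPK signaling from receptor tyrosine kinases, read 52.3, 29.5 and 36.8 CPM in the *Nf1/p53* dKO against 105, 174 and 89.8 CPM in the *Nf1/Cdkn2a* dKO. Its log2 fold change was 1.64 ± 0.32, or 3.11-fold, with an adjusted p of 0.058. *Spry2* read 28.8, 34.7 and 60.0 CPM against 83.2, 86.8 and 100.1 CPM, a log2 fold change of 1.13 ± 0.29 (adjusted p = 0.091). Both genes had no overlap, and *Spry2* passed the test only without *Nf1/p53* dKO line 3 among the lines left out (log2 fold change 1.51, adjusted p = 0.038).

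*Spry1*, their close relative, differed the other way. Its level was 20.8, 35.7 and 11.5 CPM in the *Nf1/p53* dKO against 1.54, 7.99 and 3.30 CPM in the *Nf1/Cdkn2a* dKO. The log2 fold change of -2.40 ± 0.69, 5.29-fold lower, had an adjusted p of 0.114, and the lines of each genotype lay far apart. Without *Nf1/Cdkn2a* dKO line 2 the log2 fold change was -3.22, and over the other lines left out it ran from -2.72 to -1.90. *Spred3*, the least abundant of the Spred genes per kb of exon in every line, read 23.9, 16.9 and 12.1 CPM against 31.7, 53.5 and 30.5 CPM, without overlap (1.13 ± 0.33, adjusted p = 0.120). *Spred1*, which recruits neurofibromin to the membrane, and *Spred2* overlapped between the genotypes, with log2 fold changes of 0.37 and -0.29.

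Summed per kb of exon, the 3 Spry genes gave 31.96, 35.1 and 40.4 CPM per kb in the *Nf1/p53* dKO against 62.5, 80.9 and 68.0 CPM per kb in the *Nf1/Cdkn2a* dKO. The makeup of the sum differed too. *Spry1* supplied 22.4, 35.0 and 9.77% of it in lines of the *Nf1/p53* dKO against 0.848, 3.40 and 1.67% in the *Nf1/Cdkn2a* dKO lines. *Spry2* was the main Sprouty RNA in all 6 lines, at 43.2 to 71.1% and 51.4 to 70.6%. The 3 Spred genes summed to 48.9, 41.2 and 40.7 CPM per kb against 50.8, 49.3 and 47.9 CPM per kb, with the ranges overlapping.

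**Figure D3:**
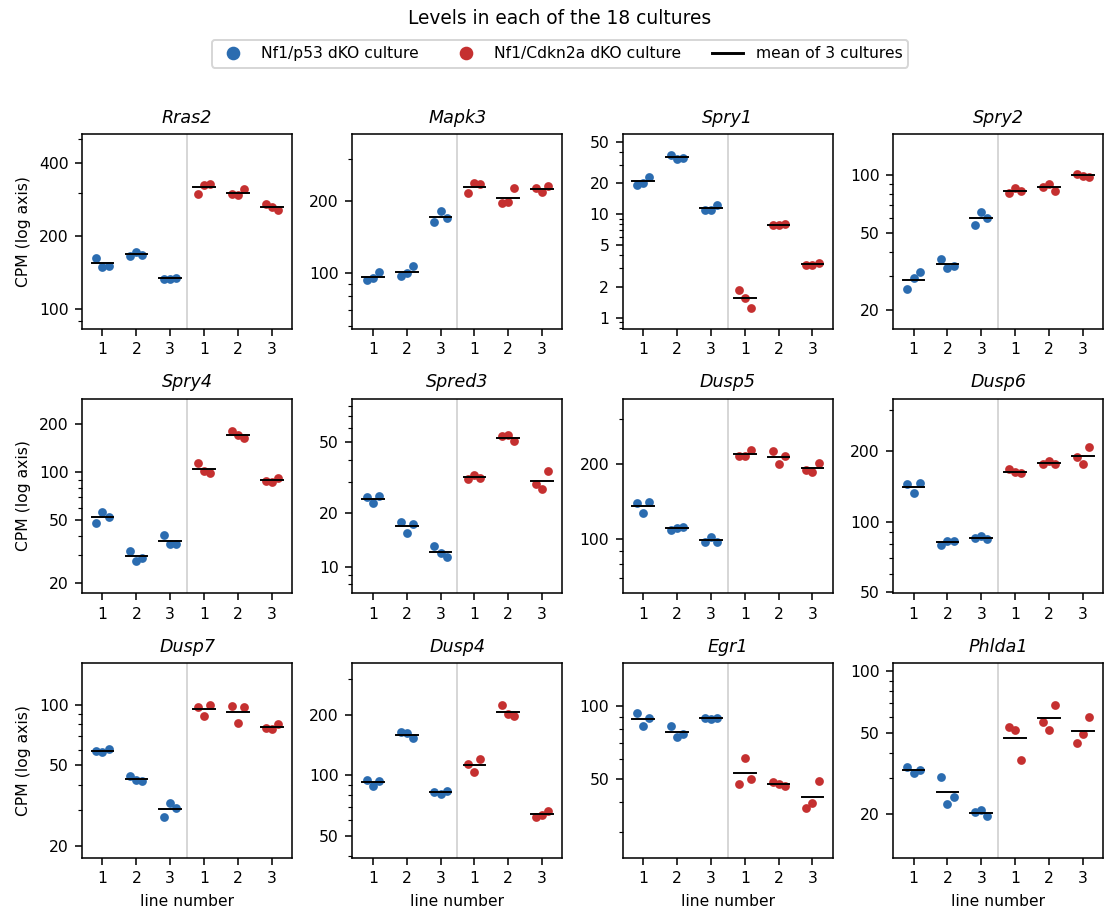
CPM (log axis) of 12 genes in each of the 18 cultures; points are cultures (blue *Nf1/p53* dKO, red *Nf1/Cdkn2a* dKO), horizontal bars the mean of the 3 cultures of a line, and the horizontal axis the line number. *Spry1* stays above 10 CPM in every blue culture and below 10 CPM in every red one, while *Dusp4* overlaps between the genotypes.

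Of the 4 Dusp phosphatases, which remove the activating phosphates from ERK, none was called by edgeR. Higher in the *Nf1/Cdkn2a* dKO without overlap were 3 of the 4, each at an unadjusted p under 0.05. Of all genes, 14.8% were higher without overlap and 9.81% were higher at an unadjusted p under 0.05. *Dusp5*, a nuclear phosphatase of ERK, read 135, 110.3 and 99.1 CPM in the *Nf1/p53* dKO against 219, 214 and 193 CPM in the *Nf1/Cdkn2a* dKO. With a log2 fold change of 0.86 ± 0.16 and an adjusted p of 0.052 it came nearest to the threshold among the negative regulators. *Dusp7* read 58.8, 42.8 and 30.4 CPM against 95.6, 92.7 and 77.7 CPM, a log2 fold change of 1.01 ± 0.25 (adjusted p = 0.089).

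*Dusp6*, a cytoplasmic ERK phosphatase and a common marker of pathway output, read 139.5, 81.5 and 85.3 CPM in the *Nf1/p53* dKO against 164, 178 and 192 CPM in the *Nf1/Cdkn2a* dKO. *Nf1/p53* dKO line 1 lay close under the *Nf1/Cdkn2a* dKO lines, and the log2 fold change of 0.80 ± 0.24 had an adjusted p of 0.117. Without that line it was 1.09, with an adjusted p of 0.049. *Dusp4*, another nuclear phosphatase, overlapped throughout, at 91.6, 159 and 82.3 CPM against 113, 209 and 64.6 CPM (0.22 ± 0.46, adjusted p = 0.809), and its sign turned without *Nf1/Cdkn2a* dKO line 2 (-0.31). The 4 genes summed to 150.0, 141 and 106 CPM per kb of exon in the *Nf1/p53* dKO against 211, 247 and 186 CPM per kb in the *Nf1/Cdkn2a* dKO, and *Dusp5* was the largest contributor in 5 of the 6 lines.

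**Figure D4:**
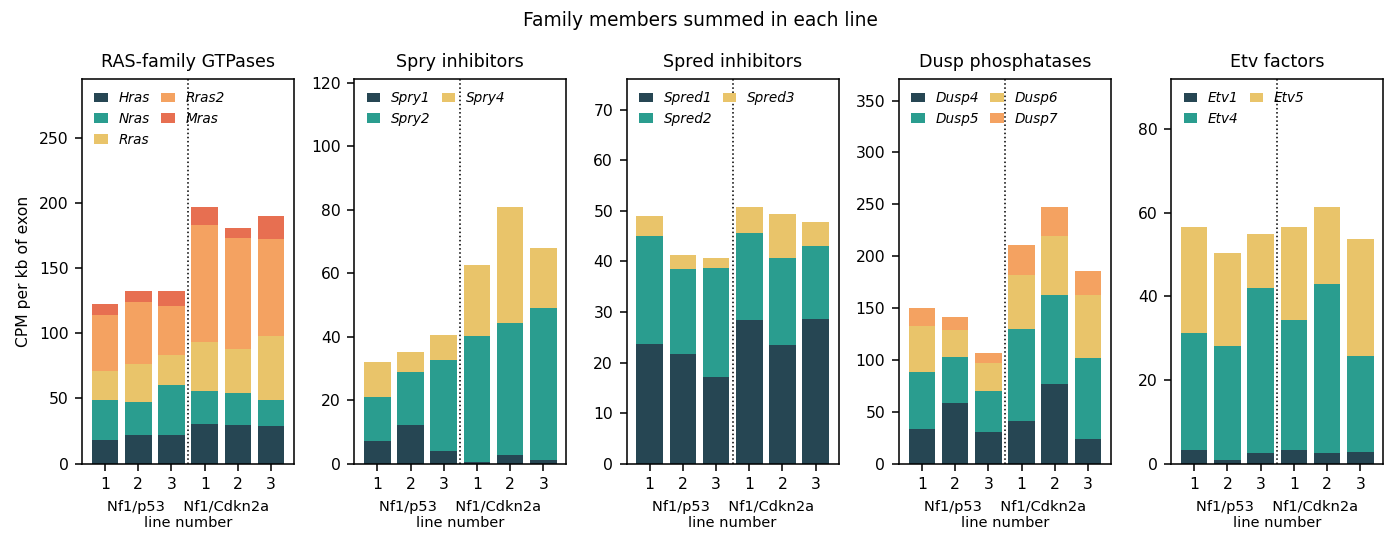
Stacked bars of CPM per kb of exon for 5 gene families in the 6 lines (lines 1 to 3 of the *Nf1/p53* dKO left of the dotted line, lines 1 to 3 of the *Nf1/Cdkn2a* dKO right of it). The RAS-family, Spry and Dusp sums stand higher in every *Nf1/Cdkn2a* dKO line than in any *Nf1/p53* dKO line, while the Spred sums (40.7 to 50.8) and Etv sums (50.3 to 61.3) overlap; vertical axes differ between panels.

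The 6 output genes went different ways. *Egr1*, an immediate-early zinc finger factor at chr18:34859823-34864984 on the plus strand, fell in the *Nf1/Cdkn2a* dKO. It read 87.2, 77.6 and 88.8 CPM in the *Nf1/p53* dKO against 52.3, 47.7 and 42.3 CPM in the *Nf1/Cdkn2a* dKO, with no overlap and little spread within a genotype. The log2 fold change was -0.83 ± 0.14 (SE, n = 3 lines each), 1.78-fold lower, with an adjusted p of 0.046 from edgeR. Like that of *Rras2*, the call was lost when any of the 6 lines was left out (adjusted p = 0.076 to 0.144).

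*Phlda1*, a growth-factor-induced gene of the pleckstrin homology-like family, had the highest fold change of the output genes. It read 32.6, 25.7 and 20.3 CPM against 46.7, 58.5 and 51.4 CPM, without overlap (0.99 ± 0.21, adjusted p = 0.065). *Lzts1* had the lowest (-1.52 ± 0.71, adjusted p = 0.265), but it was nearly silent, at 0.503, 0.651 and 0.747 CPM against 0.289, 0.043 and 0.328 CPM, with at most 21 counts in any culture and some cultures at 0. The Etv factors *Etv1*, *Etv4* and *Etv5*, ETS transcription factors of the PEA3 group that act downstream of ERK, overlapped between the genotypes, with log2 fold changes of 0.40, -0.01 and 0.19. Their sum per kb of exon was 56.6, 50.3 and 54.8 CPM per kb in the *Nf1/p53* dKO against 56.5, 61.3 and 53.7 CPM per kb in the *Nf1/Cdkn2a* dKO. *Etv1* made up 1.90 to 5.71% of it, and *Etv4* and *Etv5* the rest.

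By class, the median log2 fold change was 0.17 for the core genes, 0.22 for the negative regulators and 0.09 for the output genes, beside -0.02 for all genes tested. The median absolute log2 fold change was 0.44 for the 38 genes and 0.38 for all genes. The output median turned to -0.05 with raw library totals. Of the 17 core genes 6 were without overlap, of the 15 negative regulators 7, and of the 6 output genes 3 (one of them the nearly silent *Lzts1*), beside 31.4% of all genes. At an unadjusted p under 0.05, 14 of the 38 genes passed (11 higher and 3 lower), beside 22.4% of all genes (9.81% higher).

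Treating the 18 cultures as separate samples, which ignores that cultures of a line share a tumor, called 24 of the 38 genes with edgeR, beside 46.5% of all genes, and 23 with DESeq2, beside 39.3%. With the line as a random effect in limma-voom, 13 were called beside 16.6% of all genes, *Nras*, *Spry1* and *Egr1* lower and 10 higher. The 10 were *Hras*, *Rras2*, *Mapk3*, *Spred3*, *Spry2*, *Spry4*, *Dusp5*, *Dusp6*, *Dusp7* and *Phlda1*. DESeq2 on the 6 summed lines called 10 beside 12%: *Rras2*, *Spred3*, *Spry2*, *Spry4*, *Dusp5*, *Dusp7* and *Phlda1* higher and *Ksr1*, *Spry1* and *Egr1* lower.

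*Rras2* and *Egr1* were the genes called with DESeq2's size factors (1.85% of all genes called), upper-quartile scaling (2.1%), at least 10 counts in every line (1.73%) and raw library totals (2.78%). Without a filter on low counts *Spry4* joined them, beside 1.72% of all genes. With 1 of the 6 lines left out, 3 genes were called in all, *Dusp6* without *Nf1/p53* dKO line 1 (1.11% of all genes called) and *Mapk3* and *Spry2* without *Nf1/p53* dKO line 3 (0.681%). None of the 38 was called without *Nf1/p53* dKO line 2 (0.173%) or without *Nf1/Cdkn2a* dKO line 1 (0%), line 2 (0.0127%) or line 3 (0.145%).

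Between lines of 1 genotype, the cultures allowed a separate test, of whether lines differ rather than whether genotypes do. A gene was called when its adjusted p was under 0.05 and the highest line was at least 2-fold the lowest. Among the *Nf1/p53* dKO lines 7 of the 38 genes were called, beside 29.4% of all 14690 genes tested. Among the *Nf1/Cdkn2a* dKO lines 4 were called, beside 17.6%. The median ratio of the highest to the lowest line was 1.39 for the 38 genes and 1.61 for all genes in the *Nf1/p53* dKO, and 1.27 and 1.39 in the *Nf1/Cdkn2a* dKO. At an adjusted p alone, 32 of the 38 passed in the *Nf1/p53* dKO, beside 73.2% of all genes, and 28 in the *Nf1/Cdkn2a* dKO, beside 56.8%. A 1.5-fold threshold called 15 of the 38 beside 47.8% of all genes in the *Nf1/p53* dKO and 11 beside 29.2% in the *Nf1/Cdkn2a* dKO.

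In the *Nf1/p53* dKO the called genes were *Rps6ka1* (4.04-fold), *Etv1* (3.28-fold), *Spry1* (3.11-fold), *Nf1* (2.54-fold), *Rasal2* (2.42-fold), *Spry2* (2.08-fold) and *Etv5* (2.00-fold, just past the threshold). *Spred3*, at 1.99-fold, and *Dusp7*, at 1.95-fold, lay just under it. In the *Nf1/Cdkn2a* dKO they were *Spry1* (5.14-fold), *Dusp4* (3.22-fold), *Nf1* (2.99-fold) and *Mras* (2.14-fold). *Nf1* and *Spry1* were thus called in both genotypes.

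The line with the highest level varied from gene to gene. The shares of all genes highest or lowest in each line were not counted, so the counts below only describe these genes. Some orders rest on small ratios, such as 1.17 for *Rasa3* and 1.38 for *Dusp5* in the *Nf1/p53* dKO. Of the negative regulators only *Nf1*, *Rasal2*, *Spry1* and *Spry2* were called there. In the *Nf1/p53* dKO, line 1 was the highest for 10 of the 15 negative regulators and line 3 the lowest for 9, while line 1 was the highest for 2 of the 17 core genes. Line 3 of this genotype was also the line with the highest *Myod1* level, at 204 CPM, and a link between these was not tested. *Myod1* was at 0 in every *Nf1/Cdkn2a* dKO line. In the *Nf1/Cdkn2a* dKO, line 2 was the highest for 8 of the 15 negative regulators and line 3 the lowest for 9, while line 2 was the highest for 1 of the 17 core genes. In the *Nf1/p53* dKO, 3 of the 4 Dusp genes were highest in line 1 and 3 of the 4 lowest in line 3, while *Spry2* was lowest in line 1, where *Spry4* was highest.

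**Figure D5:**
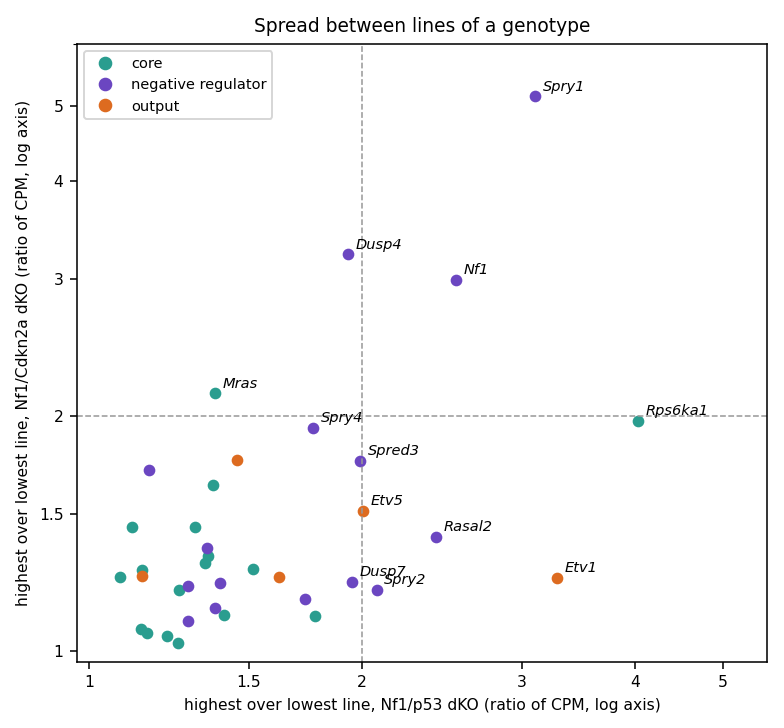
Ratio of the highest to the lowest line (CPM, log axes) among the 3 *Nf1/p53* dKO lines (horizontal) and the 3 *Nf1/Cdkn2a* dKO lines (vertical) for 37 of the 38 genes, coloured by class; *Lzts1* is left out for its low counts. Dashed lines mark 2-fold. *Nf1* and *Spry1* are past 2-fold in both genotypes, *Dusp4* and *Mras* only in the *Nf1/Cdkn2a* dKO, and most core genes sit under 1.5-fold in both.

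Differences between lines of a genotype made up a median of 88.5% of the variance of log2 CPM among *Nf1/p53* dKO cultures over the 38 genes, beside 84.8% over all genes. Among *Nf1/Cdkn2a* dKO cultures these shares were 78.4% and 61.1%, where 25% would be the share with no difference between lines. The median SD between cultures of a line was 0.10 on the log2 scale for the 38 genes and 0.15 for all genes. Cultures were not equally close by chi-square per degree of freedom over all genes. Culture 1 of *Nf1/Cdkn2a* dKO line 1 stood farthest apart, at 24.7 and 27.1 against the other cultures of its line (9.79 between those). Culture 3 of *Nf1/p53* dKO line 1 gave 12.9 and 10.8 (5.46 between the others). Culture 3 of *Nf1/Cdkn2a* dKO line 2 gave 11.9 and 11.4 (5.79 between the others). *Nf1* ranged from 11.9 to 21.8 CPM among the cultures of *Nf1/Cdkn2a* dKO line 3, a ratio of 1.83.

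Beyond the 38 genes, 75 further genes of the pathway were listed, of which 74 were in the table, 66 passed the filter and 3 were called, all higher in the *Nf1/Cdkn2a* dKO, beside 0.638% of all genes in that direction. *Elf1*, an ETS factor, measured 33.7, 39.3 and 28.8 CPM in the *Nf1/p53* dKO against 82.4, 78.4 and 86.6 CPM in the *Nf1/Cdkn2a* dKO (log2 fold change 1.28 ± 0.16, adjusted p = 0.029). *Fxyd5*, a regulator of the sodium pump, measured 95.7, 90.0 and 69.1 CPM against 256, 276 and 191 CPM (1.505 ± 0.21, adjusted p = 0.036). *Rps6ka4* encodes the ERK-activated nuclear kinase MSK2. It measured 113, 112 and 88.5 CPM against 272, 187 and 229 CPM (1.13 ± 0.19, adjusted p = 0.046 from edgeR). Without *Nf1/Cdkn2a* dKO line 1 edgeR called 0 genes, so the calls of these 3 genes were lost as well.

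Their lines did not overlap, as for 21 of the 66 genes (15 higher and 6 lower), beside 31.4% of all genes, and the median log2 fold change of the 66 was 0.11. Among the other negative regulators *Dusp1*, a phosphatase of several MAP kinases, had the highest fold change (1.58 ± 0.34, adjusted p = 0.068) and *Il17rd*, a feedback inhibitor of FGF signaling, the lowest. *Dusp2*, *Dusp8*, *Dusp9*, *Dusp10* and *Dusp16* overlapped between the genotypes. Their log2 fold changes ran from -0.58 (*Dusp2*, at most 1.55 CPM) to 0.18 (*Dusp9*). Among the other output genes the highest and lowest were *Ereg*, a ligand of the EGF receptor (2.07 ± 0.45, adjusted p = 0.068), and *Egr2*, a relative of *Egr1* (-2.11 ± 0.84, adjusted p = 0.205). Among RAS activators and adaptors the exchange factor *Rasgrf1* was highest and the adaptor *Gab1* lowest. *Rasgrf1* measured 3.88, 0.537 and 1.94 CPM against 19.2, 1.21 and 68.9 CPM, with overlap (3.81 ± 1.39, adjusted p = 0.178), so that lines 1 and 3 of the *Nf1/Cdkn2a* dKO were high and line 2 was not. *Ralb* and *Rap1a* were the highest and lowest of the other small GTPases, and the scaffold *Lamtor3* was the lowest of the other kinases and scaffolds. Leaving aside *Rps6ka4*, *Elf1* and *Fxyd5*, none of these passed the test.

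Several of the named genes share exonic bases with a gene on the opposite strand in GENCODE M21, including *Dusp5*, *Phlda1*, *Spry1*, *Spred3*, *Rasal2*, *Rps6ka1* and *Ksr1*. The sources used here do not say whether reads were counted by strand, so reads of such a pair may not be told apart and these levels are uncertain to that extent.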

How the data were processed

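RNA was sequenced from 18 libraries, 3 cultures of each of 3 lines per genotype, with library preparation at a company. Per the labels, the authors' tools included CASAVA, STAR 2.5 and DESeq2 1.14.1, with the build GRCm38 (mm10); the counting tool and its strand setting are not given in the sources used here. The authors deposited raw counts, integers for each gene and library that were not normalized.

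For each line the counts of its 3 cultures were added up, since they share a tumor. Genes were kept with filterByExpr (minimum count 10, minimum total 15), scaled with TMM and tested with edgeR's quasi-likelihood test, two-sided, with Benjamini-Hochberg adjustment over all genes tested (edgeR 4.0.16, limma 3.58.1, DESeq2 1.42.0, R 4.3.3). The SE of a log2 fold change was taken from it and its F statistic. Differences between lines were tested in the same way on the 18 cultures. An exact permutation of 3 lines against 3 cannot go below p = 0.1 and was not used. CPM per kb used exon lengths of GENCODE M21, merged over all transcripts of a gene. The merged length was 2.26 kb for *Mapk3* and 13.9 kb for *Braf*, so levels compared between genes depend in part on the annotation. The steps were tested on simulated counts. Figures used Python 3.11.15 and matplotlib 3.10.9.

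The 38 genes and all lists were chosen with earlier results of these data known. Named in full were genes called or without overlap and the highest and lowest of each role. Of the further pathway genes, those called and the extremes of each group were named, with the other Dusp genes in brief. Some genes of the pathway and of the marker lists are not reported here. P-values of the main comparison rest on the spread between these lines. Those of the test among lines of a genotype rest on the spread between cultures of a line. With cultures as separate samples, p-values rest on the spread of all cultures of a genotype.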

Additional observations from a re-analysis of the deposited data

Results flagged for a closer look

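Among 76 sets of 9 cultures, the 38 genes in each genotype, 1 held a culture far from the rest by Dixon's criterion. *Braf* read 25.0 CPM in culture 3 of *Nf1/p53* dKO line 1, while the nearest of the other 8 cultures of that genotype read 29.5 CPM, a gap of 0.558 of the whole range. Over all genes that culture was also the least like the others of its line (chi-square per degree of freedom 12.9 and 10.8, against 5.46 between those). Chance alone would flag about 1 in 20 sets of 9 independent cultures. Cultures of a line share a tumor, so that rate does not hold here, and the cause was not tested.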

How the results depend on the processing

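The number of genes called depended on the unit of replication and the test. The main comparison called 274 genes and 2 of the 38. With the 18 cultures as separate samples edgeR called 6096 genes and 24 of the 38 and DESeq2 7186 and 23 (39.3% of genes); a limma-voom fit with lines as random effects called 2173 and 13, and DESeq2 on the 6 summed lines 2060 and 10 (12% of genes). With the line number as a replicate block, edgeR called 0 genes and 0 of the 38 (2740 genes at an unadjusted p under 0.05). The lines of the 2 genotypes share only a number: the deviations of same-numbered lines from their genotype's mean correlated at -0.12, -0.13 and -0.08, and no line correlated best with its own number. Raw library totals, an alternative chosen after seeing the data, gave 423 genes and 2 of the 38. Leaving out 1 line at a time gave 0 to 172 genes and 0 to 2 of the 38, with 0 genes without *Nf1/Cdkn2a* dKO line 1 (2668 at an unadjusted p under 0.05); neither *Rras2* nor *Egr1* was then called. DESeq2's size factors, upper-quartile scaling, no filter and a stricter filter called 226 to 411 genes and 2 to 3 of the 38, the third being *Spry4* without a filter.

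The median log2 fold change of the 38 was 0.18, 0.13 with upper-quartile scaling and 0.041 with raw totals. The core and output medians with raw totals were 0.031 and -0.046. With 1 line left out the medians ran from 0.16 to 0.23 for the 38, 0.074 to 0.24 for the core genes, 0.089 to 0.41 for the negative regulators and -0.020 to 0.15 for the output genes. Signs near 0 turned: *Map2k2* was -0.017 in limma-voom, -0.033 with upper-quartile scaling, -0.0013 with the stricter filter, -0.0030 with the replicate block and -0.12 with raw totals, which also turned *Araf* (-0.081), *Rasa1* (-0.082) and *Rasa2* (-0.044). Leaving out a line turned the sign of *Map2k2* (-0.16 to 0.12), *Rasa1* (-0.027 to 0.16), *Rasa3* (-0.23 to 0.15), *Rasal2* (-0.44 to 0.12), *Araf* (-0.029 to 0.14), *Rps6ka3* (-0.084 to 0.0058), *Rasa2* (-0.047 to 0.19), *Etv4* (-0.22 to 0.19), *Etv5* (-0.050 to 0.39) and *Dusp4* (-0.31 to 0.58), none of which was called in any of these fits.

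With a 1.5-fold in place of a 2-fold threshold between lines, 7024 genes and 15 of the 38 were called in the *Nf1/p53* dKO and 4283 and 11 in the *Nf1/Cdkn2a* dKO. The culture number as a replicate block moved no such count by over 1.5 times (4250 and 2543 genes). With 3 lines per genotype, differences of the size of most of those seen here did not pass the test, and the cause of each lost call was not tested.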
